A study of Homo sapiens with 6 samples.

Results

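Glycolysis turns glucose into pyruvate, and its genes were read here together with other genes of the hypoxia response in human SH-SY5Y neuroblastoma cells given endosulfan. The list held 40 genes, and its members were all probe sets of the deposited table whose annotation named exactly 1 gene that was on the list. That gave 124 probe sets of 36 genes, out of 49395 probe sets in the table and 18132 genes with a probe set of their own. Of the 4 genes without values, SLC2A3 shared all 5 of its probe sets with SLC2A14, and SLC16A1, SLC16A3 and CA9 are not analysed here. By role the 36 genes were the glucose transporter SLC2A1, 15 enzymes of the pathway, 3 enzymes that set the level of fructose 2,6-bisphosphate, 2 lactate dehydrogenases, 2 pyruvate dehydrogenase kinases, 2 alpha subunits of the hypoxia-inducible factor (HIF), 2 prolyl hydroxylases that sense oxygen, and 9 other HIF targets. The groups were SH-SY5Y cells exposed for 24 h to 3 µM endosulfan, a chlorinated pesticide known as an antagonist of GABA receptors, and SH-SY5Y control cells, with 3 arrays each. The medium of all cells was MEM:F12 with 10% fetal bovine serum, and whether the control cells received a vehicle is not stated in the labels. The line stands for 1 neuroblastoma only, and the labels call the arrays biological replicates without naming a culture or day, so the spread between arrays may be partly technical.

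As background, HIF is a pair of an alpha subunit, HIF1A or EPAS1, and the partner ARNT. When oxygen is plentiful the prolyl hydroxylases mark the alpha subunit for destruction by the VHL ubiquitin ligase, and when oxygen is short the alpha subunit persists and switches on genes of glucose uptake, glycolysis, blood vessel growth, mitophagy and collagen hydroxylation. The alpha subunits are controlled mainly at the level of protein, which these arrays do not measure. Many tumour cells, neuroblastoma included, keep glycolysis high even with oxygen present.

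Each array gave a log2 value per probe set, made by the authors with RMA, and a difference of 1 on this scale is a doubling. Array medians lay between 4.89 and 4.94. No pair of the 15 pairs of arrays was identical, and no scanner intensities were used here, so no probe set could be called above background. All 9 measured markers of adrenergic neuroblastoma cells were above the overall median level, at 7.72 to 13.19, while the 5 measured leukocyte markers were all below it, at 2.81 to 4.63. Above it, too, were 5 of 7 Schwann and mesenchymal, 4 of 5 endothelial and 2 of 5 epithelial markers. A level above the median therefore does not by itself tell the cell type. The groups lay apart only narrowly. On the first principal component, with 63.9% of the variance, endosulfan arrays 1, 2 and 3 lay at 61.8, -1.81 and 33.4, and control arrays 1, 2 and 3 at -71.6, -2.33 and -19.5, so that all endosulfan arrays were above all controls but endosulfan 2 and control 2 lay next to each other. Poly-A spike-in transcripts, added before labelling, averaged 7.81, 7.73 and 8.80 in endosulfan arrays 1 to 3 and 6.13, 7.73 and 5.84 in control arrays 1 to 3 (log2, exact two-sided permutation p = 0.2). Their part in the results that follow was not tested except through a fit that takes their level into account.

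ACGTG is 1 form of the core that HIF binds in hypoxia response elements, and many known elements lie close to the gene's start. Promoter windows from RefSeq (GRCh38.p14) were found for 32 of the 36 genes, but not for PFKFB2, VEGFA, BNIP3L and NDRG1. The letters ACGTG on either strand, read as ACGTG or CACGT, stood in the 250 bases before the start in 13 of these 32 windows (40.6%), against 18.7% of 27305 windows of all genes and 21.0% of 14425 windows of genes on the array. Because the list was chosen to hold HIF targets, a share above that of all genes is no independent result. The same letters are part of the E-box CACGTG, in which the matches on the 2 strands overlap, and a match is not a bound site. The other form of the core, GCGTG, was not searched, so a window without a match may still hold a core. By class the letters stood in 8 of 17 windows of glycolytic enzymes, 3 of 6 of other HIF targets and 2 of 9 (22.2%) of the other members. The stretches printed here are those of the 6 genes that had a match and whose endosulfan and control arrays did not overlap. Beyond these letters the stretches were not compared. Of the 6 genes, 5 were higher and 1, PGK1, lower in endosulfan arrays. Members without a match also had groups apart. These were PFKL, PFKP, ENO1, PFKFB4, EGLN3 and P4HA2 on the higher side and PDK1, EPAS1 and ADM on the lower side. Each is written 5′ to 3′ on the gene's strand with the matches in capitals.
ALDOC, chr17:28576896-28576948, minus strand: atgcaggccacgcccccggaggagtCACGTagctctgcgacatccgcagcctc
ALDOA, chr16:30064076-30064130, plus strand: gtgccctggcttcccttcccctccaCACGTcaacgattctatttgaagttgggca
PGK1, chrX:78104040-78104094, plus strand: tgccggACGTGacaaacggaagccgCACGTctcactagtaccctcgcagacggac
EGLN1, chr1:231422288-231422325, minus strand: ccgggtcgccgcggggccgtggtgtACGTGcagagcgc
BNIP3, chr10:131982027-131982081, minus strand: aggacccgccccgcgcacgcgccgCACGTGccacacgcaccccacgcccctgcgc
ANKRD37, chr4:185396673-185396727, plus strand: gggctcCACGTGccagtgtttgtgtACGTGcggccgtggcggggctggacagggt
ALDOC and ANKRD37 had 3 matches each in their 250 bases, of which 1 is shown for ALDOC, and BNIP3 had 2. PGK1, which also had 2, differed by -0.10 on the log2 scale, while ANKRD37 differed by 0.40. Members with a match had a median log2 difference of 0.15 and 9 of 13 were on the higher side, and for those without one the median was 0.12, with 12 of 19 on the higher side.

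Between endosulfan and control arrays no glycolysis or hypoxia gene passed the test. The aldolase ALDOC, the bifunctional enzyme PFKFB4, the oxygen sensors EGLN1 and EGLN3 and the HIF target ANKRD37 lay 1.32 to 1.45-fold higher in endosulfan arrays, with all 3 above the controls. PFKL and P4HA2 did so too, at 1.36 and 1.34-fold. For EGLN1 the direction depended on the probe set, as 1 of its 3 lay 1.63-fold lower. The HIF subunit EPAS1, the kinase PDK1, the histone demethylase KDM3A and the lactate dehydrogenase LDHB lay 1.71 to 1.94-fold lower, the last 2 with overlapping groups. On their brightest probe sets ADM and PGK1 lay 1.42 and 1.08-fold lower, without overlap. With limma and Benjamini-Hochberg adjustment over all features, 0 of the 121 tested member probe sets had an adjusted p below 0.05, against 0.00811% of all probe sets, and the smallest adjusted p was 0.215. At gene level, where the brightest probe set stood for each gene, 0 of 36 passed, against 0.00552% of all genes, with adjusted p from 0.197 to 0.959. At an unadjusted p below 0.05 there were 9 of the 36 members on the higher side, against 6.64% of all genes, and 3 (8.33%) on the lower side, against 10.5% of all genes. The groups did not overlap for 12 members (33.3%) on the higher side, where 12.4% of all genes did so, and for 4 (11.1%) on the lower side, where 10.2% did. The 36 members had a median log2 difference of 0.10, with 23 on the higher side, and all genes one of 0.053, with 60.2% on the higher side.

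The counts depended on single arrays. The 12 members at an unadjusted p below 0.05 became 6 without endosulfan array 1 and 7 without endosulfan array 3, and 16 without endosulfan array 2 or control array 2. The count over all genes, 3103 on all arrays, moved likewise, to 1826 without endosulfan 1, 1618 without endosulfan 3, 3958 without endosulfan 2 and 4091 without control 2. Without endosulfan 1 and control 1 together the members numbered 6, of which 5 were higher, and all genes 1695. With the mean of the spike-ins as a covariate, which leaves 1 degree of freedom fewer, there were 0 members and 296 of all genes. Among the 13 members on the lower side control 1 was the highest and endosulfan 1 the lowest of the 6 arrays in 9 (69.2%), against 31.8% of all genes on the lower side. Among the 23 members on the higher side the mirrored pattern held in 5 (21.7%), against 32.6%. Of the 9 measured markers of adrenergic neuroblastoma cells 3 (33.3%) lay on the lower side with an unadjusted p below 0.05, against 10.5% of all genes. These were ELAVL4 (-1.09 ± 0.23 (SE)), STMN2 (-1.05 ± 0.26 (SE)) and GATA3 (-0.35 ± 0.11 (SE)). DDC and HAND2 were also on the lower side, at -0.33 and -0.013 with overlapping groups. PHOX2A, DBH, TH and CHGA lay on the higher side, at 0.27, 0.14, 0.13 and 0.023 with overlapping groups, and the list's median log2 difference was -0.013. The summed level of all 9, as log2, was 14.78 to 14.83 in endosulfan arrays and 14.94 to 15.06 in control arrays, lower in every endosulfan array. Unlogged values were summed, so bright markers weigh most. STMN2 is one of these, with means of 11.23 in endosulfan and 12.29 in control arrays. The part of these markers in the members' differences was not tested. Bulk arrays cannot tell fewer cells of a type from less RNA per cell.

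**Figure D1:**
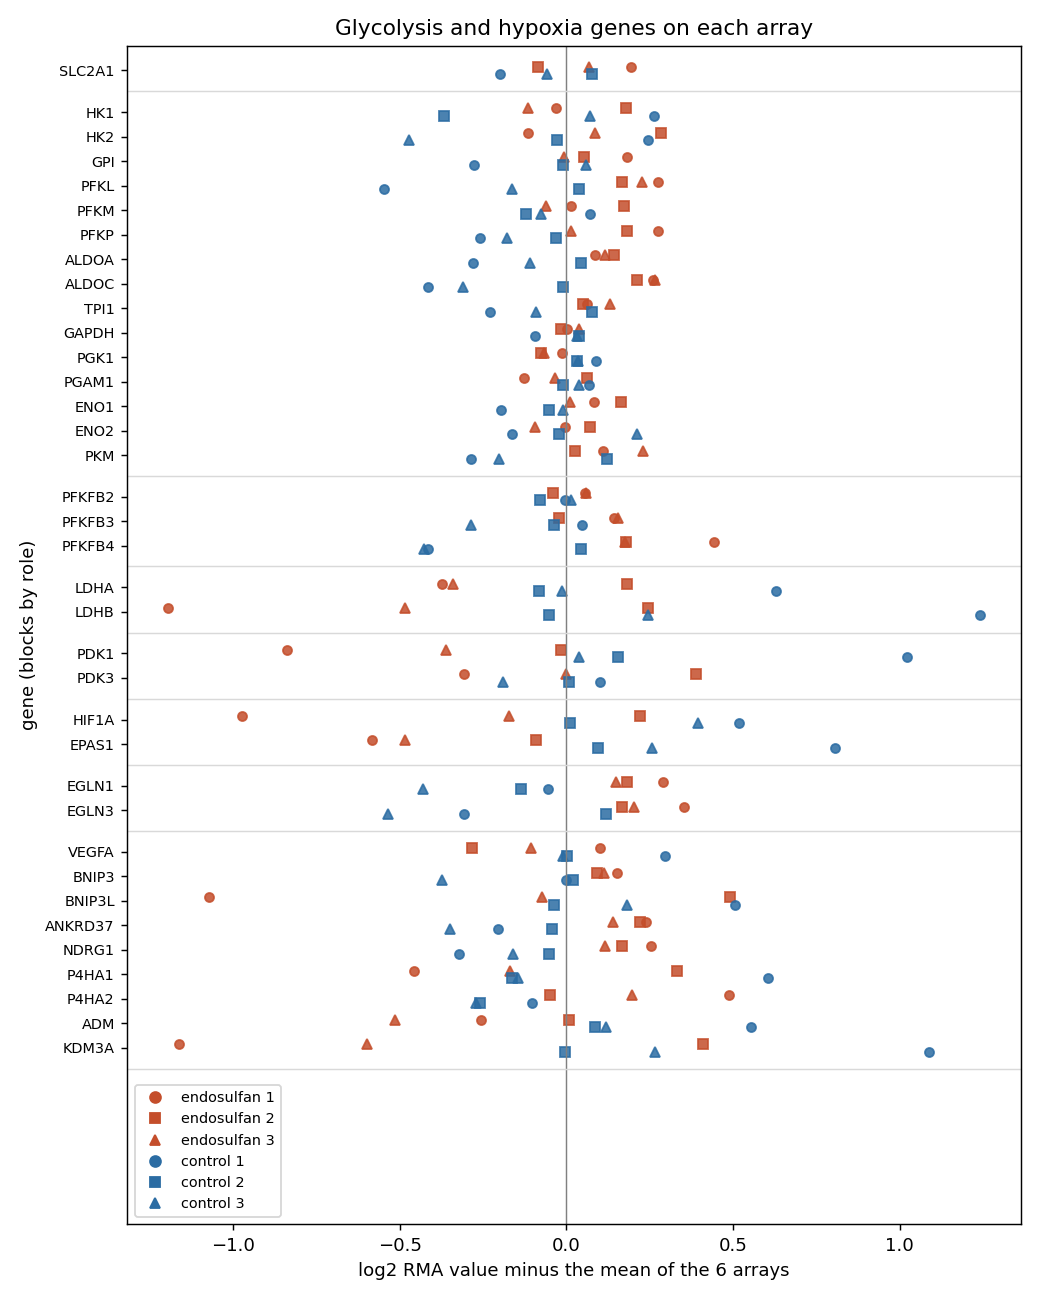
Log2 value of each of the 36 genes on each array, as the difference from that gene's mean over the 6 arrays (horizontal axis), with endosulfan in red above control in blue and a marker shape per replicate number. ALDOC, PFKFB4 and ANKRD37 have all 3 endosulfan arrays to the right of the control arrays, while for LDHB, KDM3A and BNIP3L endosulfan 2 lies within the controls' range and endosulfan 1 lies far to the left.

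Glucose entry and the first, energy-consuming steps come before the sugar is split. SLC2A1, the main glucose transporter of most cells, was at log2 levels of 10.996, 10.72 and 10.87 in endosulfan arrays 1 to 3, against 10.60, 10.88 and 10.74 in control arrays 1 to 3, and the groups overlapped. All 4 of its probe sets had positive differences. On 1 of them the groups did not overlap, with a log2 difference of 0.36 (unadjusted p 0.023 by limma). On their brightest probe sets the hexokinases, which trap glucose as glucose 6-phosphate, overlapped too, with log2 differences of 0.022 for HK1 and 0.17 for the inducible HK2. The second probe set of HK2 had a log2 difference of 0.34 without overlap (unadjusted p 0.042 by limma). The isomerase GPI had a log2 difference of 0.15. The 3 phosphofructokinase subunits, which catalyse the committed step, had unlike values. PFKL, the liver-type subunit, was at log2 levels of 8.38, 8.27 and 8.33 in endosulfan arrays 1 to 3, against 7.56, 8.14 and 7.94 in control arrays 1 to 3. All 3 endosulfan arrays lay above the controls, with a log2 difference of 0.45 ± 0.16 (SE) and an adjusted p of 0.24 by limma, and the other 2 probe sets of PFKL had log2 differences of 0.40 and 0.42. Without control 1 the difference was 0.29. PFKP, the platelet-type subunit, was at log2 levels of 11.01, 10.91 and 10.75 in endosulfan arrays 1 to 3, against 10.47, 10.70 and 10.55 in control arrays 1 to 3. Its groups did not overlap either, with a log2 difference of 0.31 ± 0.12 (SE) and an adjusted p of 0.258. The groups of the muscle-type PFKM overlapped, with a log2 difference of 0.084.

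The aldolases split fructose 1,6-bisphosphate. ALDOC, the form typical of brain, was at log2 levels of 11.95, 11.90 and 11.96 in endosulfan arrays 1 to 3, against 11.27, 11.68 and 11.38 in control arrays 1 to 3. This was the smallest adjusted p of the 36 genes, 0.197 by limma, with a log2 difference of 0.49 ± 0.13 (SE) or 1.41-fold, and the endosulfan arrays had a mean of 11.94 with an SD of 0.030. Differences of its 5 probe sets ran from 0.32 to 0.68 (log2) and all 5 had an unadjusted p below 0.05. Without the arrays numbered 1 its log2 difference was 0.40. The ubiquitous ALDOA was at log2 levels of 13.14, 13.20 and 13.17 in endosulfan arrays 1 to 3, against 12.77, 13.10 and 12.95 in control arrays 1 to 3. Its groups did not overlap, though control 2 came close to endosulfan 1, and its log2 difference of 0.23 ± 0.12 (SE) had an adjusted p of 0.351 and was 0.15 without control 1.

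The later steps of the pathway yield ATP and NADH. GAPDH, which oxidises glyceraldehyde 3-phosphate and is often taken as a reference gene, was at log2 levels of 13.74, 13.72 and 13.77 in endosulfan arrays 1 to 3, against 13.64, 13.77 and 13.77 in control arrays 1 to 3. The groups overlapped, and the log2 difference was 0.015 ± 0.10 (SE). The array's own 3 control probe sets for GAPDH differed by 0.014 at the 3′ end, 0.020 in the middle and -0.078 at the 5′ end. TPI1, the triose phosphate isomerase, and the enolase ENO1 had log2 differences of 0.16 and 0.17, and the neuronal enolase ENO2 of -0.018. PGK1, which makes the first ATP, was at log2 levels of 12.66, 12.59 and 12.60 in endosulfan arrays 1 to 3, against 12.76, 12.70 and 12.70 in control arrays 1 to 3. Its groups did not overlap, but the difference of -0.10 ± 0.098 (SE) was about as large as its error, and 2 of its 9 probe sets had the opposite sign. PGAM1, the phosphoglycerate mutase, had a log2 difference of -0.064 and pyruvate kinase PKM one of 0.24, with overlapping groups. All 6 probe sets of PKM had positive differences, from 0.24 to 0.46. On its second brightest one, at 0.32, the groups did not overlap. For 3 of the 6 the unadjusted p was below 0.05 by limma, some of these with means below the array medians.

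The lactate dehydrogenases, which turn pyruvate into lactate and back, were on the lower side in endosulfan arrays. LDHA was at log2 levels of 12.30, 12.85 and 12.33 in endosulfan arrays 1 to 3, against 13.30, 12.59 and 12.66 in control arrays 1 to 3. Endosulfan 2 lay above control arrays 2 and 3, so the groups overlapped, and the log2 difference was -0.35 ± 0.23 (SE). LDHB was at log2 levels of 9.15, 10.59 and 9.86 in endosulfan arrays 1 to 3, against 11.58, 10.29 and 10.59 in control arrays 1 to 3. It had the most negative difference of the 36 genes, -0.96 ± 0.42 (SE), with an adjusted p of 0.297, and endosulfan 2 equalled control 3 to 2 decimals. Without control 1 it was -0.58 and without endosulfan 1 -0.60, and LDHA had -0.13 without control 1. LDHB has 1 probe set, so no other one checks it.

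Fructose 2,6-bisphosphate is the strongest activator of phosphofructokinase, and the PFKFB enzymes make and break it. PFKFB4, a known HIF target, was at log2 levels of 9.91, 9.64 and 9.64 in endosulfan arrays 1 to 3, against 9.05, 9.51 and 9.04 in control arrays 1 to 3. All endosulfan arrays lay above all controls, and the log2 difference of 0.53 ± 0.16 (SE) was the most positive of the 36, with an adjusted p of 0.215. Its other 3 probe sets had log2 differences of 0.0066, 0.26 and 0.32. PFKFB3 had a log2 difference of 0.18 with overlapping groups. PFKFB2 had one of 0.048 on its brightest probe set, whose means of 4.35 in endosulfan and 4.30 in control arrays lay below the array medians, and 3 of its 6 probe sets had the opposite sign.

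The pyruvate dehydrogenase kinases shut off the entry of pyruvate into the citric acid cycle. PDK1, a HIF1A target, was at log2 levels of 6.73, 7.55 and 7.20 in endosulfan arrays 1 to 3, against 8.59, 7.72 and 7.60 in control arrays 1 to 3. Its groups did not overlap, but endosulfan 2 came close to control 3, and the log2 difference was -0.81 ± 0.30 (SE) with an adjusted p of 0.25. Both probe sets were negative, and without control 1 the difference was -0.50. PDK3 had overlapping groups and a log2 difference of 0.054.

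The HIF alpha subunits were on the lower side. EPAS1, also called HIF2A and prominent in sympathetic and neuroblastoma cells, was at log2 levels of 8.24, 8.74 and 8.34 in endosulfan arrays 1 to 3, against 9.63, 8.92 and 9.08 in control arrays 1 to 3. The endosulfan arrays all lay below the controls, with a log2 difference of -0.77 ± 0.21 (SE) and an adjusted p of 0.2. Its second probe set had a mean below the array medians and a log2 difference of 0.045. HIF1A was at log2 levels of 8.80, 9.998 and 9.61 in endosulfan arrays 1 to 3, against 10.30, 9.79 and 10.17 in control arrays 1 to 3. Endosulfan 2 lay above control 2 and endosulfan 1 was the lowest of the 6 arrays, and the log2 difference was -0.62 ± 0.29 (SE) with an adjusted p of 0.321. Without endosulfan 1 it was -0.28. All 8 probe sets of HIF1A were negative, from -0.80 to -0.076.

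The prolyl hydroxylases that mark the alpha subunits, themselves HIF targets, were on the higher side. EGLN3 was at log2 levels of 7.003, 6.82 and 6.85 in endosulfan arrays 1 to 3, against 6.34, 6.77 and 6.12 in control arrays 1 to 3. The groups did not overlap, though control 2 came close to endosulfan 2, with a log2 difference of 0.48 ± 0.17 (SE) (adjusted p 0.245). All 3 of its probe sets were positive, though the dimmest had means below the array medians. EGLN1, the main oxygen sensor, was at log2 levels of 7.28, 7.18 and 7.14 in endosulfan arrays 1 to 3, against 6.94, 6.86 and 6.56 in control arrays 1 to 3. On this probe set the groups did not overlap and the log2 difference was 0.41 ± 0.13 (SE) (adjusted p 0.22), and a second one had a log2 difference of 0.53. The third probe set of EGLN1 had a log2 difference of -0.70, with levels of 5.75, 6.78 and 6.60 in endosulfan arrays 1 to 3 and 7.61, 6.84 and 6.78 in control arrays 1 to 3, so the direction for EGLN1 depends on the probe set. All 3 are of the types that the maker marks as shared between transcripts or open to cross-hybridisation.

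Other HIF targets went both ways. ANKRD37, an ankyrin repeat protein and a sensitive hypoxia marker, was at log2 levels of 8.55, 8.54 and 8.45 in endosulfan arrays 1 to 3, against 8.11, 8.27 and 7.96 in control arrays 1 to 3. Endosulfan arrays all lay above the controls, with a log2 difference of 0.40 ± 0.12 (SE) and an adjusted p of 0.212. NDRG1, a stress-responsive gene that hypoxia induces in many cells, was at log2 levels of 8.95, 8.86 and 8.81 in endosulfan arrays 1 to 3, against 8.38, 8.65 and 8.54 in control arrays 1 to 3. Its groups did not overlap, and the log2 difference was 0.36 ± 0.12 (SE) (adjusted p 0.22), with all 6 probe sets positive. Most of the dimmer NDRG1 probe sets had means below the array medians. P4HA2, a collagen prolyl hydroxylase subunit, was at log2 levels of 8.93, 8.40 and 8.64 in endosulfan arrays 1 to 3, against 8.34, 8.19 and 8.17 in control arrays 1 to 3. Its endosulfan arrays spread more widely, 0.27 SD, but all lay above the controls, with a log2 difference of 0.42 ± 0.15 (SE) (adjusted p 0.246). BNIP3, a mitophagy receptor, was at log2 levels of 11.83, 11.77 and 11.79 in endosulfan arrays 1 to 3, against 11.67, 11.70 and 11.30 in control arrays 1 to 3. Control 3 was the outlying array there, the groups did not overlap, and the log2 difference was 0.24 ± 0.13 (SE), or 0.11 without control 3.

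On the lower side, ADM, the vasoactive peptide adrenomedullin, was at log2 levels of 7.41, 7.68 and 7.16 in endosulfan arrays 1 to 3, against 8.22, 7.76 and 7.79 in control arrays 1 to 3. The groups did not overlap, though endosulfan 2 came close to control 2, and the log2 difference was -0.51 ± 0.18 (SE) (adjusted p 0.243), while 1 of its 3 probe sets had a difference of 0.22. KDM3A, a histone demethylase, was at log2 levels of 6.20, 7.77 and 6.76 in endosulfan arrays 1 to 3, against 8.45, 7.36 and 7.62 in control arrays 1 to 3. Endosulfan 2 was above control arrays 2 and 3, so the groups overlapped, and the log2 difference of -0.90 ± 0.42 (SE) had an adjusted p of 0.313, with all 3 probe sets negative. It was -0.58 without control 1 and -0.54 without endosulfan 1. BNIP3L, the second mitophagy receptor, was at log2 levels of 7.50, 9.07 and 8.50 in endosulfan arrays 1 to 3, against 9.08, 8.54 and 8.76 in control arrays 1 to 3. On this brightest probe set the difference was -0.44 ± 0.36 (SE), with overlapping groups, and it was -0.0095 without endosulfan 1 and 0.13 without both arrays numbered 1. The other 5 probe sets of BNIP3L, of which 2 held identical values, had log2 differences of -0.66 to -0.46. For 2 of them the unadjusted p was below 0.05, and for 1 of these the groups did not overlap, at 7.59, 7.93 and 7.64 in endosulfan arrays 1 to 3 against 8.66, 7.95 and 8.08 in control arrays 1 to 3. P4HA1, the sister form of P4HA2, had a log2 difference of -0.20 with overlapping groups, which turned to 0.23 without both arrays numbered 1. The angiogenic factor VEGFA had a log2 difference of -0.19 on its brightest probe set, with overlapping groups, and 7 of its 10 probe sets had the opposite sign.

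**Figure D2:**
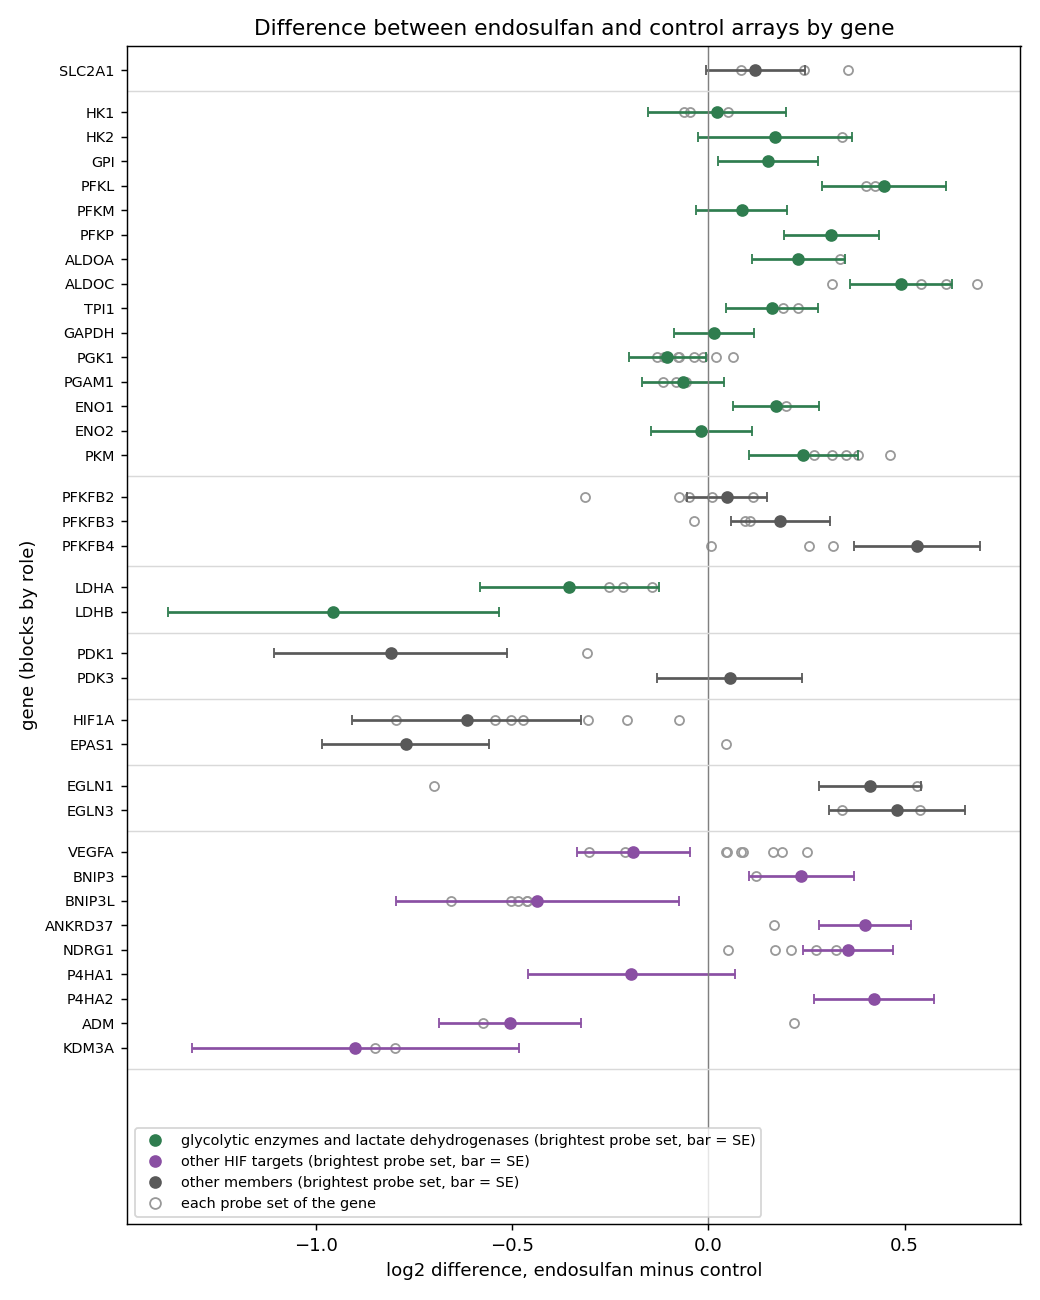
Log2 difference, endosulfan minus control, for each of the 36 genes (horizontal axis); filled points are the brightest probe set with its standard error, coloured by class, and open points are all probe sets of the gene. PFKFB4 and ALDOC lie farthest to the right at 0.53 and 0.49, LDHB and KDM3A farthest to the left at -0.96 and -0.90, and VEGFA, EGLN1, EPAS1 and ADM have probe sets on both sides of zero.

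The glycolytic enzymes, here the 15 pathway enzymes and both lactate dehydrogenases, were then set beside the other HIF targets. Of the 17 enzymes 12 (70.6%) were on the higher side, with 3 (17.6%) at an unadjusted p below 0.05, all higher (PFKL, PFKP and ALDOC), and a median log2 difference of 0.15. Of the 9 other HIF targets 4 (44.4%) were on the higher side, with 3 higher (ANKRD37, NDRG1 and P4HA2) and 1 lower (ADM) at an unadjusted p below 0.05, and a median of -0.19. Over all genes 60.2% were on the higher side, 6.64% were higher and 10.5% lower at an unadjusted p below 0.05, and the median was 0.053. The mean level of the enzymes was 11.32 ± 0.082 in endosulfan and 11.26 ± 0.023 in control arrays (log2, SD, n = 3 each), and relative to the 6 arrays endosulfan 1, 2 and 3 were at -0.030, 0.12 and -0.0051 and control 1, 2 and 3 at -0.0084, -0.025 and -0.055. For the other HIF targets the means were 8.66 ± 0.18 in endosulfan and 8.75 ± 0.19 in control arrays (SD, n = 3 each), with endosulfan 1, 2 and 3 at -0.19, 0.15 and -0.100 and control 1, 2 and 3 at 0.27, -0.049 and -0.083. In both classes the groups overlapped and the difference was smaller than the spread within at least 1 group. The median of the other HIF targets minus that of the enzymes was -0.34 on all arrays, and it was -0.062 without control 1 and 0.12 without endosulfan 1 and control 1. Adding EGLN1, EGLN3, SLC2A1 and PDK1 to the HIF targets turned their median to 0.12. By class means, endosulfan minus control was 0.059 for the enzymes and -0.091 for the other HIF targets, closer together than the medians. The difference between the classes was not tested. Its size depended on control 1 and on the choice of HIF targets.

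**Figure D3:**
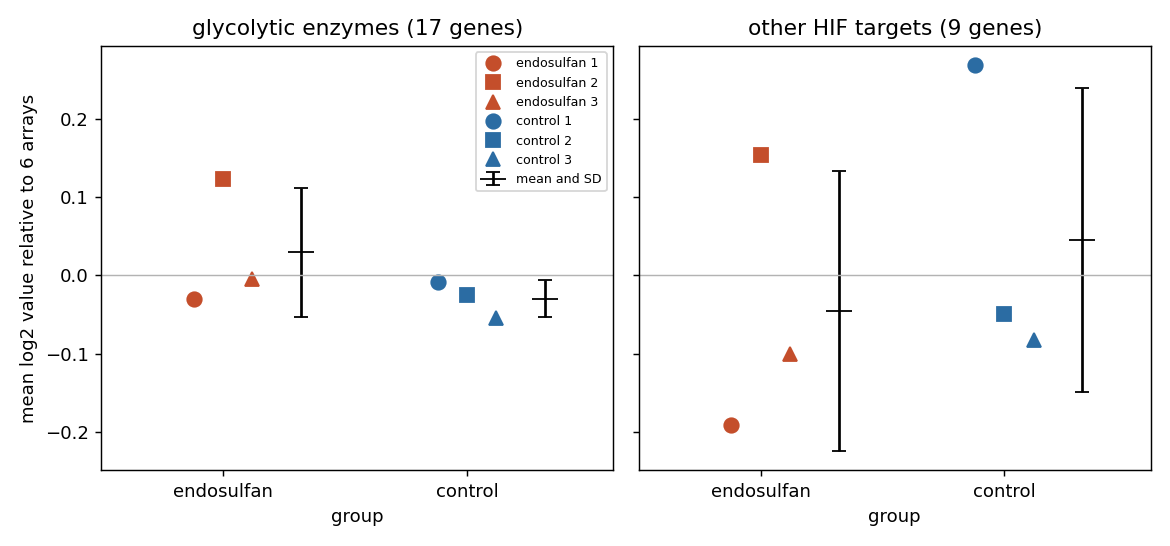
Mean log2 value of the 17 glycolytic enzymes (left) and the 9 other HIF targets (right) on each array, relative to the mean of the 6 arrays, with endosulfan left of control and bars for the mean and SD of 3 arrays. Endosulfan 2, at 0.12 and 0.15, is the highest endosulfan array in both panels, and control 1, at 0.27, stands above the other controls in the right panel.

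Related genes were set against each other on the same array, a comparison chosen after the values were seen. In 11 families there were 15 pairs, and with 3 arrays against 3 the smallest exact two-sided permutation p is 0.1, so none could pass 0.05. In 3 pairs the groups did not overlap, each with an exact permutation p of 0.1 and, adjusted over the 15 pairs by Benjamini-Hochberg, of 0.375. For all genes taken singly the groups lay apart in 12.4% on the higher and 10.2% on the lower side. No such share was computed for pairs of other genes. ALDOC minus ALDOA was -1.19, -1.29 and -1.21 in endosulfan arrays 1 to 3, against -1.50, -1.42 and -1.57 in control arrays 1 to 3, a shift of 0.26 towards the brain form. ENO1 minus ENO2 was 4.26, 4.27 and 4.28 in endosulfan arrays 1 to 3, against 4.14, 4.15 and 3.96 in control arrays 1 to 3, a shift of 0.19. PDK1 minus PDK3 was 1.05, 1.17 and 1.22 in endosulfan arrays 1 to 3, against 2.50, 1.73 and 1.81 in control arrays 1 to 3, a shift of -0.86 away from PDK1. Each value compares different probe sets, so its level has no meaning and its shift between groups does. BNIP3 minus BNIP3L and P4HA2 minus P4HA1 shifted by 0.67 and 0.62, with overlapping groups. HK2 minus HK1 and EGLN1 minus EGLN3 shifted by 0.15 and -0.068, also with overlapping groups.

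**Figure D4:**
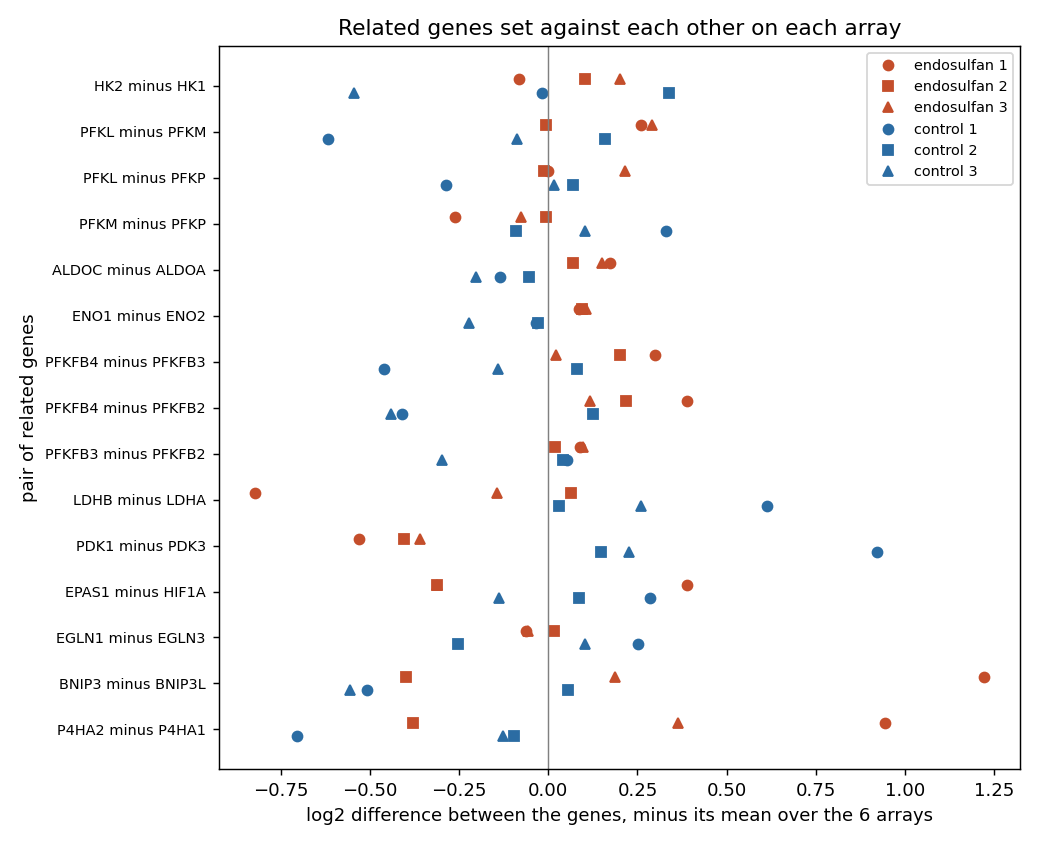
Log2 difference between 2 related genes on each array, minus its mean over the 6 arrays (horizontal axis), for 15 pairs, with endosulfan in red above control in blue. For ALDOC minus ALDOA, ENO1 minus ENO2 and PDK1 minus PDK3 the colours separate, and for BNIP3 minus BNIP3L and P4HA2 minus P4HA1 endosulfan 1 lies far to the right of endosulfan 2.

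Several probe sets of a gene served as a check on each other. Of the 27 members with more than 1 tested probe set, 8 had probe sets of both signs, namely HK1, PGK1, PFKFB2, PFKFB3, EPAS1, EGLN1, VEGFA and ADM. Every probe set had the same sign in the other 19, among them ALDOC, PFKL, PKM, NDRG1 and EGLN3 on the higher side and HIF1A, BNIP3L, KDM3A and LDHA on the lower side. For PKM, NDRG1, EGLN3, HIF1A and KDM3A some of these probe sets had means below the array medians, where agreement in sign says little. Probe sets marked by the maker as shared between transcripts or open to cross-hybridisation made up 63 of the 121, and stood for 12 of the 17 glycolytic enzymes and 6 of the 9 other HIF targets. For these enzymes, several of which have processed pseudogenes, signal from near-identical copies cannot be told apart from the gene's own.

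Pathway genes outside the list also had 0 past the adjusted threshold in each list. Over all genes 60.2% were on the higher side, and 6.64% were higher and 10.5% lower at an unadjusted p below 0.05, and the counts in the lists stand beside these shares without a test. Of 21 further glycolytic and pentose phosphate enzymes 17 (81.0%) were on the higher side and 3 (14.3%) had an unadjusted p below 0.05, all higher. TKT, the transketolase, was at 12.23, 12.29 and 12.29 in endosulfan arrays 1 to 3, against 11.35, 12.09 and 11.79 in control arrays 1 to 3, without overlap and with a log2 difference of 0.53 ± 0.18 (SE) (adjusted p 0.234), and PGD, which makes NADPH, had one of 0.34 ± 0.13 (SE). Of 21 genes of glucose and pyruvate handling 13 (61.9%) were on the higher side and 1 (4.76%) had an unadjusted p below 0.05, MPC2, a subunit of the mitochondrial pyruvate carrier. MPC2 was at 9.51, 9.62 and 9.33 in endosulfan arrays 1 to 3, against 8.92, 8.85 and 8.62 in control arrays 1 to 3, all endosulfan arrays above all controls, with a log2 difference of 0.70 ± 0.13 (SE) (adjusted p 0.196).

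Of 14 regulators of HIF 4 (28.6%) were on the higher side and 10 on the lower side, and 3 (21.4%) were lower at an unadjusted p below 0.05. CREBBP, a coactivator of HIF and many other factors, was at 7.52, 7.80 and 7.60 in endosulfan arrays 1 to 3, against 8.97, 8.27 and 8.55 in control arrays 1 to 3, and ARNT2, the neuronal partner of the alpha subunits, at 7.97, 8.04 and 7.83 in endosulfan arrays 1 to 3, against 8.46, 8.29 and 8.48 in control arrays 1 to 3. Neither overlapped, and the log2 differences were -0.96 ± 0.19 (SE) and -0.46 ± 0.11 (SE), both with an adjusted p of 0.196 by limma. Of 39 further hypoxia-induced genes 24 (61.5%) were on the higher side, with 4 higher and 4 lower (10.3% each) at an unadjusted p below 0.05. ANGPTL4, a lipase inhibitor, TMEM45A and SPAG4 had log2 differences of 0.66, 0.75 and 0.52, and VLDLR, a lipoprotein receptor, and the lipid droplet protein PLIN2 had -1.14 and -0.43, all without overlap. Markers of cell types did not pass either. Of 7 Schwann and mesenchymal markers 1 (14.3%) was higher and 2 (28.6%) were lower at an unadjusted p below 0.05, and of the 5 leukocyte, 5 endothelial and 5 epithelial markers 0.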

How the data were processed

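Total RNA of 6 SH-SY5Y samples was biotin-labelled as cRNA and read on Affymetrix expression arrays, per the labels' protocols. The authors deposited log2 values, and the submitters' processing notes name Affymetrix Expression Console and RMA without versions. RMA by design subtracts background and equalises the distributions of the arrays, so a shift common to most transcripts would not be seen. The 6 columns were matched to groups by accession, and 0 columns belonged to other samples. Values ran from 1.95 to 14.39, and the number of arrays limits the precision.

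Of 49395 rows, 102 control probe sets were set aside and 49293 tested, of which 44988 named 1 gene, 1832 several and 2473 none. Genes were named by the platform annotation (44961 IDs were in RefSeq GRCh38.p14, and 0 symbols differed). Limma 3.58.1 (lmFit, eBayes) in R 4.3.3 compared endosulfan with control on all 6 arrays, two-sided, with Benjamini-Hochberg adjustment over all probe sets, or over 18132 genes each represented by its brightest probe set, at an adjusted p below 0.05. The members and lists were chosen with earlier results of these data known. All 40 members may be named, and outside them up to 4 genes per list and direction, by smallest unadjusted p with groups apart. Exact permutation tests used scipy 1.17.1 in Python 3.11.15, and figures matplotlib 3.10.9. On artificial data with known log2 changes over 18132 genes, the fit recovered 16%, 82%, 98% and 100% of changes of 0.585, 1, 2 and 3. It made 155 calls there, of which 7 were false. Whether these rates hold for the real arrays, where the counts depended on single arrays, was not tested. The alternatives tried were a replicate block, other normalizations, filters, variance models and probe set choices, a spike-in covariate and leaving out arrays.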

Additional observations from a re-analysis of the deposited data

Results flagged for a closer look

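Control probe sets had higher means in endosulfan arrays, with no p below 0.05. Spike-in transcripts with poly-A tails had a log2 difference of 1.547, with means of 8.11 ± 0.60 in endosulfan and 6.57 ± 1.02 in control arrays (exact two-sided permutation p = 0.2, SD over 3 arrays). Hybridisation controls had one of 0.644, with 10.70 ± 0.19 in endosulfan and 10.05 ± 0.29 in control arrays (SD over 3 arrays, exact p = 0.1, which 3 against 3 cannot go below). For GAPDH, the 3′ minus 5′ difference of the control probe sets was higher by 0.093, at 0.84 ± 0.040 in endosulfan and 0.75 ± 0.056 in control arrays (SD over 3 arrays, exact p = 0.1). The same difference for beta-actin was 3.67 ± 0.10 in endosulfan and 3.59 ± 0.066 in control arrays, higher by 0.087 with overlapping groups (exact p = 0.3). A probe set naming both ENO1 and TMEM11, not counted as a member, was higher by 0.446, with 9.66, 9.43 and 9.58 in endosulfan arrays 1 to 3 against 8.98, 9.31 and 9.06 in control arrays 1 to 3. The part of these signals in the members' differences was not tested beyond the fit with the spike-in covariate.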

How the results depend on the processing

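The count of 0 member genes and 0 member probe sets past the threshold held in every alternative but array weights, the smallest adjusted p of a member gene outside that setting being 0.0688, without control 2. Array weights, whose estimation stopped before it converged and which gave endosulfan 3 and control 3 weights of 5.46 and 4.22 and the other arrays at most 0.66, called 19 member genes (13 higher, 6 lower) and 28 member probe sets, where 5915 of all genes passed. In that setting 23 members and 41 further pathway genes had an unadjusted p below 0.05, the enzyme median was 0.035, and the class difference -0.084. Against 12 members and 15 further pathway genes at an unadjusted p below 0.05 on all arrays, the spike-in covariate left 0 and 3, and leaving out both arrays numbered 1 gave 6 members. Further pathway genes numbered 9 without moderation. Leaving out 1 array gave 6 to 16 members and 8 to 26 further genes (8 without control 1, 9 without endosulfan 1, 23 without endosulfan 2 and 26 without control 2), enzyme medians from 0.071 to 0.18, HIF target medians from -0.24 to 0.055, turning positive without control 1, and class differences from -0.42 to -0.062. The HIF target median, -0.19 on all arrays, turned to 0.016 with the mean and 0.15 with the median of a gene's probe sets, 0.056 with the spike-in covariate, 0.23 without both arrays numbered 1 and 0.12 with 4 more targets. The class difference, -0.34, was -0.14, -0.0031 and -0.034 in the first 3 of these settings, and reversed to 0.12 without both arrays numbered 1. The enzyme median was 0.090 with the covariate.

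Same-numbered arrays had deviations from their group means that correlated at -0.51, -0.40 and 0.051. Deviations from a mean of 3 arrays are tied to each other, so these values cannot tell whether the numbers pair the samples. The labels do not say so either. With the replicate block 0 members passed and 8 further pathway genes had an unadjusted p below 0.05. Of 611 values of single members under the alternatives, 563 kept their direction and side of the threshold, and 22 of the 36 members never changed sign. The 6 members with a sign change when 1 array was left out had values over these 6 fits of -0.16 to 0.16 for HK1, -0.023 to 0.34 for HK2, -0.028 to 0.039 for GAPDH, -0.10 to 0.084 for ENO2, -0.13 to 0.22 for PDK3 and -0.41 to 0.055 for P4HA1. Sign changes, none past the threshold, were SLC2A1 (-0.013), TPI1 (-0.0089), GAPDH (-0.038), ENO2 (0.095), PKM (-0.053) and P4HA1 (0.056) with the covariate, SLC2A1 (-0.017), GPI (-0.0020), GAPDH (-0.026), PGAM1 (0.00042), BNIP3L (0.13) and P4HA1 (0.23) without both arrays numbered 1, HK1 (-0.11) and GPI (-0.021) with array weights, HK1 (-0.0093), PFKFB2 (-0.045) and VEGFA (0.016) with the mean and HK1 (-0.054), PFKFB2 (-0.024) and VEGFA (0.15) with the median of probe sets, HK1 (-0.062) and PDK3 (-0.13) without endosulfan 2, ENO2 (0.026) without endosulfan 3, GAPDH (-0.028) and P4HA1 (0.055) without control 1, HK1 (-0.16) without control 2 and HK2 (-0.023), ENO2 (0.084) and PDK3 (-0.027) without control 3. The causes were not tested.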

Other observations

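Probe sets that name a member together with another gene were not counted as members, and their values stand here alone. The 5 probe sets shared by SLC2A3, a neuronal glucose transporter, and SLC2A14 had log2 differences from 0.055 to 0.13, all at levels of 2.33 to 4.001, below the array medians of 4.89 to 4.94. A probe set shared by ENO1 and EDARADD differed by 0.13, close to the 0.17 and 0.20 of the probe sets of ENO1 alone. That shared by PFKFB4 and UCN2 differed by 0.24 at levels of 3.71 to 4.23.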
